A study of Mus musculus with 10 samples.

Results

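The non-clustered delta protocadherins are cell surface adhesion proteins encoded by single genes outside the protocadherin clusters of chromosome 18. Pcdh1, Pcdh7, Pcdh8, Pcdh9, Pcdh10, Pcdh17, Pcdh18 and Pcdh20 were taken by their symbols from a count table of neural stem cell cultures, and are 8 of its 52632 genes. All 8 passed the filter on low counts, which kept 17110 genes.

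Poly(A) RNA was sequenced from 10 adherent cultures, each grown with EGF and FGF from the cortices of a single mouse embryo at E14.5. The study compared cultures heterozygous for the E147A mutation of SMCHD1, which keeps genes silent on the inactive X and in several gene clusters, with +/+ cultures. Female E147A/+ cultures (n = 2, litters 1 and 2) were Smchd1 GFP-E147A/+ with XistdeltaA/+, and female +/+ cultures (n = 2, both of litter 3) were Smchd1 +/+ with XistdeltaA/+. Male E147A/+ cultures (n = 3, litters 1, 1 and 3) were Smchd1 GFP-E147A/+ and XY, and male +/+ cultures (n = 3, litters 4, 1 and 3) were Smchd1 +/+ and XY. The mutant allele carried a GFP tag that the +/+ allele lacked, so tag and mutation cannot be told apart. Both female groups carried the Xist deletion, which kept the paternal Castaneus (Cast) X inactive. The genotypes given for the males do not name it. According to the labels every embryo had a Castaneus father and a 129/C57 F1 mother, so all Cast alleles were paternal. No female litter held both genotypes, so genotype and litter cannot be told apart in females.

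Total counts ran from 20648916 to 44519020 per library. Smchd1, given as a check of the labels, was at 94.2 to 128 CPM (counts scaled to library size) in the 5 E147A/+ libraries and 122 to 192 CPM in the 5 +/+ libraries, and its counts do not show the point mutation. Summed over 9 neural stem cell markers the level was 4880 to 6920 CPM, against 0.276 to 2.8 CPM for 6 microglial markers and 0.67 to 4.12 CPM for 5 endothelial markers. Large regions of the autosomes had almost no Cast counts in a female library, although the labels describe F1 animals. Between 2920 and 4842 genes per female library had flanking genes with a median Cast share under 2%, and this touches the allele results of the members below.

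Delta protocadherins have an extracellular part of cadherin repeats, a single membrane span and a cytoplasmic tail, and bind mostly to the same protein on a neighbouring cell. The delta-1 subfamily (Pcdh1, Pcdh7, Pcdh9) carries a tail motif that binds protein phosphatase 1, and several delta-2 members (Pcdh8, Pcdh10, Pcdh17, Pcdh18) have tails linked to the WAVE actin regulators or to signalling kinases. Pcdh20 has been placed apart from both. In the developing brain the genes mark regions, layers and neuronal groups, and they take part in axon growth, cell sorting and synapse formation.

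The sequences in front of the members differed in their content of CG dinucleotides, the sites of DNA methylation. Promoters of 300 bases were given by RefSeq (GRCm38.p6) for 7 of the 8 genes. The letters CG, which read the same on both strands, occurred at least once in 94.6% of the 32851 promoters, with a median of 7. The promoter of Pcdh17 held 26, more than 83.1% of promoters, and that of Pcdh10 held 24, whereas that of Pcdh20 held 4, more than 31.4%. The other members held 11 (Pcdh7), 14 (Pcdh8), 18 and 19 (2 starts of Pcdh9) and 23 (Pcdh18). The 200 bases before the start are shown for the 2 genes with the most CG and for the one with the fewest, with each CG in capitals.
Pcdh17, chr14:84443363-84443562 (+ strand): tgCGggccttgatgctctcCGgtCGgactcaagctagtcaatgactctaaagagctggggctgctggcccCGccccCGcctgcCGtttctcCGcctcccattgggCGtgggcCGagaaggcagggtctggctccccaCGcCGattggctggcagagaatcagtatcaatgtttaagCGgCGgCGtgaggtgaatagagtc
Pcdh10, chr3:45378198-45378397 (+ strand): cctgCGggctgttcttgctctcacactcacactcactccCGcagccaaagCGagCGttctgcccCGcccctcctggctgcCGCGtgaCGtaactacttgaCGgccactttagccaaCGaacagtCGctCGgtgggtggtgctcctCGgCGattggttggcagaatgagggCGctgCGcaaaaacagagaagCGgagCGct
Pcdh20, chr14:88471397-88471596 (− strand): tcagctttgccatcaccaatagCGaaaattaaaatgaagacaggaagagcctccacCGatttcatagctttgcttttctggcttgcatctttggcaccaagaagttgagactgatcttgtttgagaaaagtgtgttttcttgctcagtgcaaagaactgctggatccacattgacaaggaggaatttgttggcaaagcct
These stretches held 14, 18 and 2 CG. Their methylation was not measured.

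Pcdh10 was the most abundant delta protocadherin of these cultures, and Pcdh8 and Pcdh20 had the lowest levels. Per kilobase of exon the mean level over 10 libraries was 4.84 CPM per kb for Pcdh10 (SD 1.44), 3.71 for Pcdh7 (SD 1.16), 2.73 for Pcdh1 (SD 0.849) and 2.60 for Pcdh9 (SD 1.00). Pcdh18 followed at 2.21 (SD 0.331) and Pcdh17 at 2.17 (SD 1.12), and Pcdh8 and Pcdh20 came last at 0.208 (SD 0.119) and 0.159 (SD 0.0503). Neighbours in this order had overlapping ranges except Pcdh17 and Pcdh8, where Pcdh17 was higher in 10 of 10 libraries. The order of Pcdh10 over Pcdh7, and of Pcdh7 over Pcdh1, held in 9 of 10 libraries each, whereas Pcdh1 was above Pcdh9, and Pcdh9 above Pcdh18, in only 5 of 10. The levels per kb of Pcdh10 and Pcdh20 stood at the percentiles 50.9 and 7.67 of all tested genes. Low counts limit the last 2 genes, with 8 to 52 counts per library for Pcdh8 and 16 to 39 for Pcdh20. Of 19 annotated genes that overlap a member, 4932441J04Rik, on the opposite strand of Pcdh7, had the most counts, 38 in a library.

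**Figure D1:**
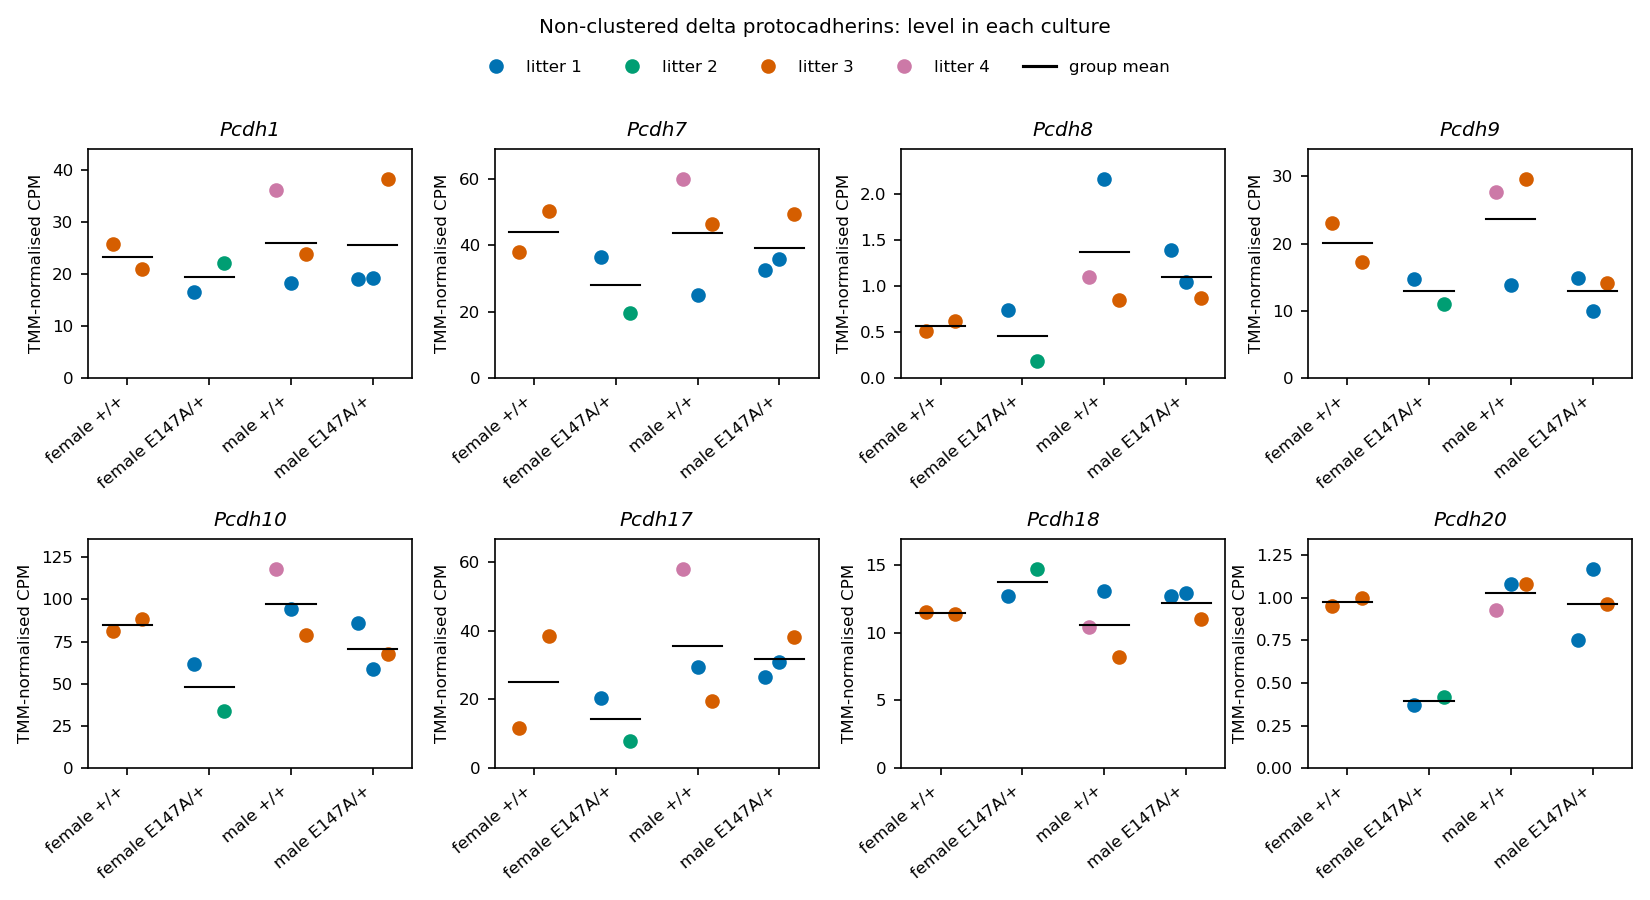
Level of each delta protocadherin (TMM-normalised CPM, linear axis from 0) in the 10 cultures by sex and genotype, with points coloured by litter and bars at group means. Pcdh17 spreads from 8.04 to 58.0 CPM, Pcdh18 stays between 8.23 and 14.7, and Pcdh20 is at 0.370 and 0.416 in female E147A/+ and at or above 0.750 elsewhere.

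The question of the study's design, whether E147A heterozygosity changed gene levels, was put to each member. No member passed the test over both sexes, in either sex or in the interaction, while 7 of 8 had a lower estimate in E147A/+ in each of the first 3 contrasts, as did 52.0%, 51.2% and 52.7% of all genes. With litter as a covariate a lower estimate was left in 5, 5 and 4 of the 8, and the sign turned for 4, 4 and 3 members. Over both sexes edgeR's quasi-likelihood test called 14 of 17110 genes (0.0818%) and 0 of the 8 members. By unadjusted p under 0.05 there were 3 of 8 members and 5.9% of all genes. The median log2 fold change was -0.45 over the members and -0.01 over all genes. In females 0.0117% of genes and no member were called, in males 0.0234% and no member, and in the interaction 0 genes, with 314 at an unadjusted p under 0.05.

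Among the delta-2 members, Pcdh10 (ENSMUSG00000049100, chromosome 3, 45378398 to 45435623), which takes part in axon guidance and synapse elimination, had 61.9 and 34.1 CPM in female E147A/+ and 81.4 and 88.5 in female +/+. In males it had 85.7, 58.9 and 67.6 CPM in E147A/+ and 118, 94.4 and 78.7 in +/+. Both female E147A/+ cultures lay below both +/+ cultures, and the male groups overlapped. Over both sexes the log2 value, E147A/+ over +/+, was -0.64 (SE 0.20, 95% interval -1.08 to -0.20), with an adjusted p of 0.701. It stayed negative under every alternative fit, from -0.87 to -0.44, with adjusted p from 0.262 to 0.98, and was -0.47 with litter as a covariate. Within litters of males, with 2 E147A/+ cultures against 1 +/+ in litter 1 and 1 against 1 in litter 3 and so no test, the E147A/+ minus +/+ difference was -0.41 and -0.22 on the log2 scale. Of the other members Pcdh9 (-0.18 and -1.07) and Pcdh20 (-0.19 and -0.15) were negative in both litters and Pcdh7 (0.45 and 0.09) and Pcdh1 (0.07 and 0.68) positive in both. Pcdh8 (-0.81 and 0.03), Pcdh17 (-0.04 and 0.96) and Pcdh18 (-0.04 and 0.41) differed in sign between the litters. Pcdh10 had a Pearson r of 0.87 over the 10 libraries with both Pdgfra and Sox10, oligodendrocyte lineage genes. Gpr17, of the same lineage and called lower over both sexes (adjusted p = 0.0249), was at 0 to 0.134 CPM in E147A/+ and 0.955 to 4.62 CPM in +/+. The sum of the 8 genes of that list was 1900 to 1960 CPM in female E147A/+, 1900 to 1940 in female +/+, 1360 to 2020 in male E147A/+ and 1870 to 2040 in male +/+, with none at 0 throughout. Their part in the Pcdh10 difference was not tested.

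Pcdh17 (ENSMUSG00000035566, chromosome 14, 84443563 to 84539002), which acts in presynaptic assembly and axon extension, gave 20.3 and 8.04 CPM in female E147A/+, and 11.8 and 38.5 in female +/+. In males it gave 26.5, 30.9 and 38.3 CPM in E147A/+ and 58.0, 29.4 and 19.6 in +/+. The groups overlapped in both sexes, and the genotype value over both was -0.50 (SE 0.41, adjusted p = 0.83). Without female +/+ replicate 2 it was 0.05.

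Pcdh18 (ENSMUSG00000037892, chromosome 3, 49743296 to 49757325), whose tail binds the adaptor Dab1, was the only member with a positive estimate. It had 12.7 and 14.7 CPM in female E147A/+ and 11.5 and 11.4 in female +/+, without overlap, and 12.7, 12.9 and 11 in male E147A/+ against 10.4, 13.1 and 8.23 in male +/+, with overlap. Its value over both sexes on the log2 scale was 0.23 (SE 0.18, adjusted p = 0.824), and -0.05 with litter as a covariate. Pcdh8 (ENSMUSG00000036422, chromosome 14, 79766775 to 79771312), known as an activity-induced protein that acts on N-cadherin at synapses, had 0.739 and 0.185 CPM in female E147A/+, 0.509 and 0.616 in female +/+. Its males had 1.39, 1.04 and 0.864 CPM with the mutation and 1.10, 2.16 and 0.844 without it. Its genotype groups overlapped, with a log2 genotype value of -0.30 (SE 0.46, adjusted p = 0.902). That value was -0.94 without female E147A/+ replicate 1 and turned to 0.06 without female E147A/+ replicate 2.

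Among the delta-1 members, Pcdh9 (ENSMUSG00000055421, chromosome 14, 93013410 to 93890679), a gene of cortical neurons, had 14.8 and 11 CPM in female E147A/+ and 23.0 and 17.3 in female +/+, without overlap. In males it had 14.9, 9.98 and 14.1 CPM in E147A/+ and 27.6, 13.8 and 29.6 in +/+. Only male +/+ replicate 2, of litter 1, lay among the E147A/+ values. The log2 fold change was -0.75 over both sexes (SE 0.25, 95% interval -1.30 to -0.20, adjusted p = 0.727) and -0.87 in males (SE 0.31, adjusted p = 1.0). With litter as a covariate the value over both sexes was -0.21, and within litters of males it was -0.18 in litter 1 and -1.07 in litter 3.

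Pcdh7 (ENSMUSG00000029108, chromosome 5, 57717967 to 58133230), whose tail binds protein phosphatase 1 and the histone chaperone SET, had 36.5 and 19.6 CPM in female E147A/+ and 37.9 and 50.2 in female +/+. In males the values were 32.7, 35.8 and 49.3 CPM in E147A/+ and 60.0, 25 and 46.4 in +/+. The female groups did not overlap and the male groups did, with a log2 genotype value over both of -0.40 (SE 0.27, adjusted p = 0.824) that became 0.35 with litter as a covariate. Pcdh1 (ENSMUSG00000051375, chromosome 18, 38185914 to 38212053), an adhesion protein also known from airway epithelium, had 16.6 and 22.1 CPM in female E147A/+, 25.7 and 20.9 in female +/+. Its males had 19.0, 19.2 and 38.3 CPM with the mutation and 36.1, 18.2 and 23.8 without it. Its groups overlapped in both sexes, with a log2 genotype value of -0.15 (SE 0.27, adjusted p = 0.912) that became 0.30 with the covariate.

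Pcdh20 (ENSMUSG00000050505, chromosome 14, 88464743 to 88471396), a gene of cortical layer 4, was lowest in the female E147A/+ cultures, at 0.370 and 0.416 CPM against 0.955 and 1.00 in female +/+. Males had 0.750, 1.17 and 0.964 CPM in E147A/+ and 0.931, 1.08 and 1.08 in +/+. No female E147A/+ value reached that of any other culture, and the male groups overlapped. In females, where these are 16 and 18 counts against 30 and 39, the log2 genotype value was -1.31 (SE 0.49, 95% interval -2.40 to -0.22, adjusted p = 0.964), and in males it was -0.10 (SE 0.39, adjusted p = 1.0). The interaction, the test of that difference between the sexes, gave -1.21 (SE 0.62, 95% interval -2.59 to 0.18, adjusted p = 0.999).

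In females, 4 of the 8 members (Pcdh7, Pcdh9, Pcdh10 and Pcdh20) had both E147A/+ values below both +/+ values, where 19.3% of all genes did, and Pcdh18 alone lay above, where 21.8% did. In males 0 of 8 were separated, where 3.96% of genes lay below and 3.2% above. Ventral telencephalon genes moved with the female groups: Dlx1 was at 4.67 and 5.66 CPM in female E147A/+ and 0.318 and 0.642 in female +/+, and Dlx2 at 2.54 and 4.37 against 0.191 and 0.231. The sum of all 8 ventral markers, of which 4 had a mean over 1 CPM and Nkx2-1 had no count, was 113 to 155 CPM in female E147A/+, 122 to 134 in female +/+, 110 to 140 in male E147A/+ and 80.1 to 169 in male +/+. The part of such regional differences between cultures in the values of the members was not tested. In bulk cultures, fewer cells that transcribe a gene and less RNA of it per cell cannot be told apart.

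**Figure D2:**
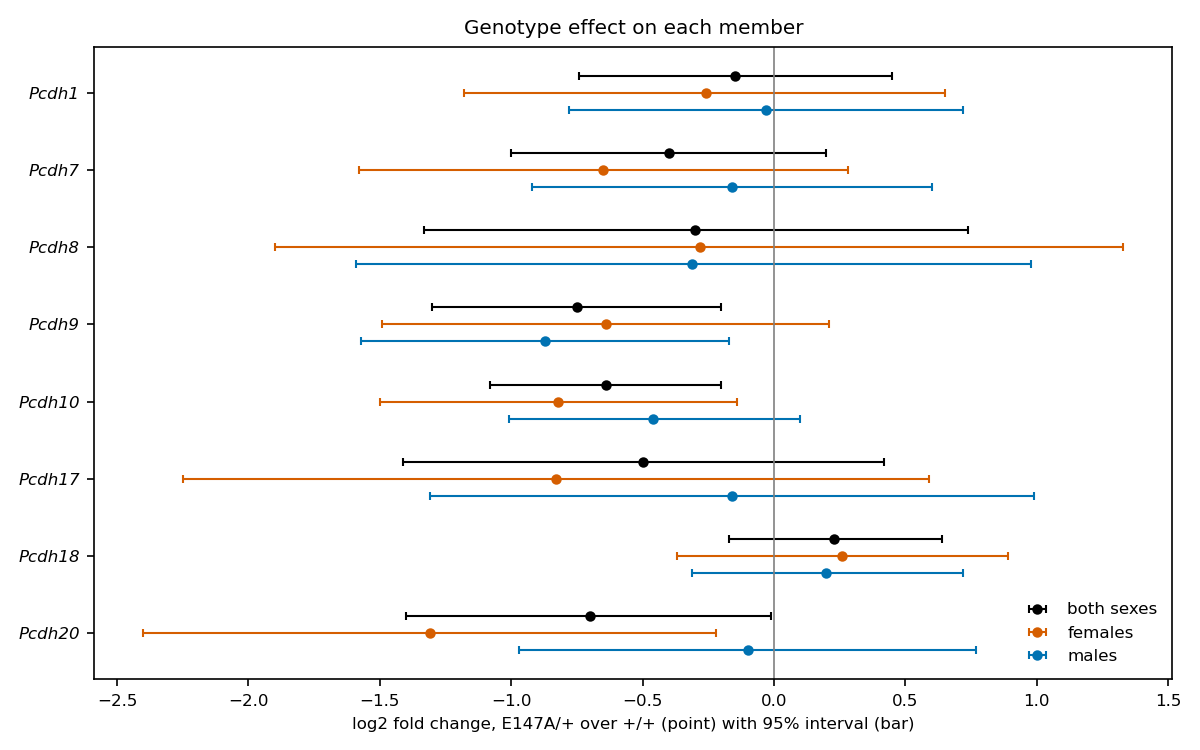
Log2 fold change of each member, E147A/+ over +/+, as points with 95% intervals from edgeR, over both sexes (black), in females (orange) and in males (blue). The estimates lie below 0 for 7 members and above 0 for Pcdh18, and no adjusted p is under 0.05.

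Outside the 8 genes, lower estimates occurred in related cadherins too. Of 15 tested atypical cadherins, which include the X-linked delta protocadherins Pcdh11x and Pcdh19, 0 were called, 12 had a negative estimate and the median was -0.33 over both sexes. An unadjusted p under 0.05 was found in 4 of the 15, or 26.7%, against 5.9% of all genes. Pcdh11x (9.15 to 13.8 CPM in female E147A/+ against 14.2 to 20.8 in female +/+, and 9.58 to 13.2 against 14.7 to 33.3 in males) was lower in E147A/+ without overlap in both sexes, at -0.74 (adjusted p = 0.776). Pcdh19 was at -0.80 (adjusted p = 0.821), Pcdh15 at -1.5 (adjusted p = 0.814), Fat3 at -0.56 (adjusted p = 0.667), Fat1 at -0.50 (adjusted p = 0.785) and Clstn1 at -0.06 (adjusted p = 0.937). Of 17 classical cadherins and catenins 0 were called, with a median of -0.09 and beta-catenin (Ctnnb1) at -0.23 (adjusted p = 0.821). Of 16 genes for cytoplasmic partners of the delta tails, among them the WAVE complex subunit Nckap1 at -0.06 (adjusted p = 0.921) and Set at -0.10 (adjusted p = 0.925), 0 were called and the median was -0.12. Pcdh1 lies on the chromosome of the protocadherin clusters, of whose 57 tested genes 7 were called higher over both sexes. With litter as a covariate, only 2 of the 14 genes called over both sexes were still called, so most of these 7 calls were lost. Of the 63 tested genes within 1 Mb of it, 4 were called higher over both sexes, all of the beta cluster: Pcdhb2 (log2 value 2.02, adjusted p = 0.0334), Pcdhb3 (2.07, 0.0195), Pcdhb11 (2.51, 0.0164) and Pcdhb12 (2.46, 0.0208). Not all of these 4 were still called with the litter covariate. The nearest of these 4 lay 761.8 kb from Pcdh1, between gene midpoints, on the side where the nearest tested gene, Arap3 at 213.2 kb, was at 0.58 (adjusted p = 0.83). The nearest on the other side, 1700086O06Rik at 45.5 kb, was at 0.12 (adjusted p = 0.955). None of the tested neighbours within 1 Mb of Pcdh7, Pcdh8, Pcdh10, Pcdh18 or Pcdh20 was called, and Pcdh9 and Pcdh17 had none.

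Females and males were next compared over both genotypes, where edgeR called 0.0292% of genes and no member. Pcdh8 was the exception in its ranges: the 4 female cultures had 0.185 to 0.739 CPM and the 6 male cultures 0.844 to 2.16 CPM, with no overlap, as in 0.181% of all genes, and no member was higher in females without overlap, as 0.24% of genes were. Female over male, Pcdh8 was at -1.26 on the log2 scale (SE 0.48, adjusted p = 0.975 in edgeR). Pcdh17 and Pcdh20 were at -0.84 (SE 0.42) and -0.68 (SE 0.31). The Xist deletion was named for females only, so it and sex cannot be told apart.

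For Pcdh7 and Pcdh1 the cultures of litters 1 and 3 were apart. The 4 cultures of litter 1 had 25 to 36.5 CPM of Pcdh7 and the 4 of litter 3 had 37.9 to 50.2, and for Pcdh1 the ranges were 16.6 to 19.2 and 20.9 to 38.3. In neither gene did the litters overlap, as in 9.67% of all genes, while Pcdh18 was lower in litter 3 without overlap (8.23 to 11.5 against 12.7 to 13.1), as in 11.4%. Litter 1 held female E147A/+ replicate 1, male E147A/+ replicates 1 and 2 and male +/+ replicate 2. Litter 3 held both female +/+ cultures, male E147A/+ replicate 3 and male +/+ replicate 3. The ranges by litter, and the marker sums by litter below, therefore mix genotype with litter. With group and litter in the model, 0.111% of genes were called by edgeR and no member. This contrast was carried by the male libraries, since no female group held both litters. The log2 difference of litter 3 over litter 1 was 0.68 for Pcdh7 (SE 0.20, adjusted p = 0.18) and 0.75 for Pcdh1 (SE 0.22, adjusted p = 0.183), and with DESeq2, which called 6.94% of all genes, the adjusted p was 0.0494 and 0.0498. Pcdh9 was at 0.58 (SE 0.32), Pcdh18 at -0.41 (SE 0.24) and Pcdh17 at 0.01 (SE 0.48). No marker of the 9 cell type lists was called between these litters. All 6 mesenchyme and pericyte markers had a higher estimate in litter 3 than in litter 1 (median log2 difference 1.5), 4 of them at an unadjusted p under 0.05, as were 17% of all genes. Their summed level was 5.12 to 11 CPM in litter 1 and 11.8 to 29.8 in litter 3. All 5 endothelial markers were likewise higher (median 1.9, 2 at an unadjusted p under 0.05), with sums of 0.67 to 2.38 and 2.83 to 4.12 CPM. Neither list had a marker at 0 counts in every library. Over the 10 libraries the Pearson r of the summed level was 0.55 with Pcdh7 and 0.38 with Pcdh1 for mesenchyme and pericyte, and 0.58 and 0.31 for endothelium. Single mesenchyme and pericyte markers ran from 0.12 (Dcn) to 0.81 (Pdgfrb) with Pcdh7 and from -0.13 (Dcn) to 0.78 (Pdgfrb) with Pcdh1. Lower estimates in litter 3 were found for all 8 oligodendrocyte lineage markers (median -0.46), all 5 tested dorsal (-0.6) and all 5 tested ventral (-1.24) telencephalon markers, 6 of 9 neural stem cell markers (-0.24, with 4 of the 9 at an unadjusted p under 0.05) and 6 of 8 neuronal markers (-0.47). The 5 astrocyte markers had a median of 0, and the 1 tested microglial marker was at 1.7. Their part in the litter differences was not tested. Litters 2 and 4 are 1 culture each, female E147A/+ replicate 2 and male +/+ replicate 1, so sex, genotype and litter cannot be told apart between them.

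By the SD of log2 CPM within groups Pcdh17 varied most from culture to culture. This SD was 0.785, above that of 81.3% of tested genes, and its level ran over a 7.21-fold range. The biological coefficient of variation that edgeR fitted to it was 0.444, against 0.276 for the trend at its level, a ratio above that of 95.6% of genes. Pcdh8, with few counts, followed at an SD of 0.658 and was above Pcdh17 in range (11.7-fold) and in that coefficient (0.487), Pcdh7 at 0.503, Pcdh1 at 0.464, Pcdh9 at 0.429 and Pcdh10 at 0.340, where the median of all genes was 0.373. Pcdh18 (0.215) and Pcdh20 (0.193) varied least within groups, above 20.7% and 15.9% of genes. Leaving out each library in turn moved the SD of Pcdh17 between 0.673 and 0.860.

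Pcdh17 was high where several neuronal and dorsal cortical transcripts were high. Doublecortin (Dcx), a gene of young neurons, was at 1.39 and 1.46 CPM in female E147A/+ replicate 2 and female +/+ replicate 1, where Pcdh17 was lowest, and between 5.10 and 26.5 in the other 8. Emx1, a transcription factor of the dorsal cortex, had no count in those libraries and in male +/+ replicate 3, and 0.855 to 5.22 CPM in the other 7. Over the 10 libraries Pearson's r with log2 Pcdh17 was 0.89 for Dcx, Emx1 and Neurog2, 0.88 for Tubb3 and 0.96 for Mbp, a myelin gene at 0.439 to 6.0 CPM. The summed level of the 8 neuronal markers did not follow Pcdh17 (r = -0.30), at 637 to 770 CPM in female E147A/+, 644 to 809 in female +/+, 573 to 686 in male E147A/+ and 623 to 1040 in male +/+. That of the 6 dorsal markers, of which 4 had a mean over 1 CPM, had an r of 0.85, at 35.6 to 46.5, 40.4 to 56.9, 42.9 to 56.4 and 33.7 to 71.6 CPM in the same groups. These coefficients describe 10 libraries that share litters and depth differences, and the part of cell makeup in the spread of Pcdh17 was not tested.

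Pcdh9 and Pcdh18 ran against each other and along Dlx1. Their r was -0.83 over the 10 libraries and -0.80 after group means were removed. Dlx1, a transcription factor of the ventral telencephalon at 0.0337 to 5.66 CPM, had an r of -0.89 with Pcdh9 and 0.89 with Pcdh18. The summed level of the 8 ventral markers had an r of -0.46 with Pcdh9 and 0.72 with Pcdh18. Pcdh7 and Pcdh18 had an r of -0.76, Pcdh8 and Pcdh10 of 0.72, and Pcdh10 and Pcdh17 of 0.70.

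**Figure D3:**
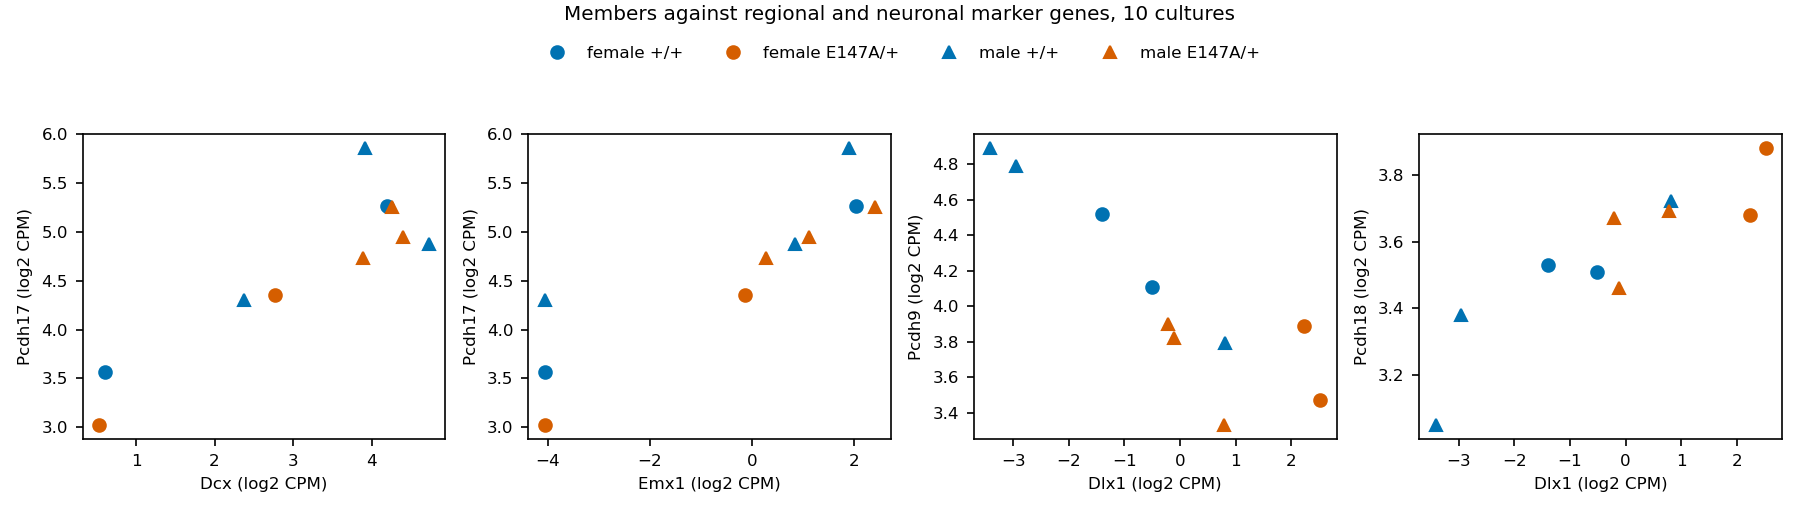
Log2 CPM of Pcdh17 against Dcx and Emx1, and of Pcdh9 and Pcdh18 against Dlx1, with 1 point for each of the 10 cultures (circles female, triangles male, orange E147A/+, blue +/+). Pcdh17 is higher where both markers are higher (r = 0.89 each), and where Dlx1 is higher Pcdh9 is lower (r = -0.89) and Pcdh18 higher (r = 0.89). Libraries with no Emx1 count sit at the left edge. For the summed level of the 8 ventral markers, not shown, r was -0.46 with Pcdh9 and 0.72 with Pcdh18.

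The genes most like each member over the 10 libraries, by Pearson's r among genes whose log2 CPM averaged 1 or more, differed from member to member. For Pcdh17 they were Uevld (0.99), Ptpn5 (0.989) and Rab11fip4 (0.989). For Pcdh1 they were Xbp1 (0.978), Hgsnat (0.965) and Gorasp1 (0.958), and for Pcdh18 Tmem131l (0.967), Tcf7l1 (0.951) and Pkn3 (0.946). Pcdh9 was followed by Mtmr10 (0.959), Chst11 (0.959) and mt-Nd4 (0.952), Pcdh10 by Kcna2 (0.946), Pstpip2 (0.945) and Slitrk2 (0.924), and Pcdh7 by Tex15 (0.932), Sp1 (0.922) and Tpd52l1 (0.921). The low members were most like Jade3 (0.952), Rlbp1 (0.887) and Svil (0.886) for Pcdh8 and Dmrta1 (0.905), Gpr85 (0.905) and Dennd4a (0.885) for Pcdh20, the last 3 with a Spearman's rho of 0.479 to 0.648. The 3 genes named for each member were the highest 3 of the 12602 or 12603 genes compared.

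In the 4 female libraries, counts assigned to the 129 and Cast alleles made up 30.6% to 31.7% of the total. In 18 of 27 pairs of a member and a library with at least 10 allelic counts, the median Cast share of the 6 flanking genes, 3 on each side, lay within the 95% Wilson interval of the member. The other 9 pairs were of Pcdh1, Pcdh9, Pcdh10, Pcdh17 and Pcdh20. In E147A/+ replicates 1 and 2 and +/+ replicates 1 and 2, in that order, Pcdh10 had Cast shares of 0.46% (95% Wilson interval 0.157 to 1.34, 652 allelic counts), 58.7% (53.5 to 63.7, 356), 51.0% (47.3 to 54.8, 674) and 49.7% (46.3 to 53.1, 815). The 6 nearest protein-coding genes outside the members, 3 on each side with at least 30 allelic counts, had medians of 0.872%, 46.7%, 50% and 50.7%. Pcdh18, on the same chromosome, had 0 of 204 counts in E147A/+ replicate 1, which allows a share of up to 1.47%, then 47.8%, 41.8% and 52.4%, next to flanking medians of 0.493%, 48.0%, 49.7% and 50.3%. In E147A/+ replicate 1 Pcdh18 thus had no Cast count and Pcdh10 had 3 of 652. The other 3 libraries had shares of 41.8% to 58.7% in both genes.

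Pcdh7 gave Cast shares of 0.476%, 0% (0 of 213, allowing up to 1.41%), 0% (0 of 287, allowing up to 1.05%) and 0.192%, next to flanking medians of 0.141% to 0.248% in genes at least 3.87 Mb away. Within 1 Mb of it lay 3 tested genes, none of them protein-coding. Gm42635 and 4932441J04Rik, both overlapping Pcdh7, had no Cast count among 23, 6, 1 and 3 and among 14, 7, 3 and 13 allelic counts, most of them too few for a share, and the pseudogene Gm8121 had shares of 88.5%, 77.8%, 71.4% and 100% from 14 to 29 allelic counts. Pcdh9 gave 0% (0 of 239, allowing up to 1.26%), 40.4% (33.7 to 47.5), 40.7% (34.8 to 46.9) and 0.855%, next to flanking medians of 0.194%, 52.0%, 48.9% and 0.356%. Pcdh1 gave 5.45%, 51.3%, 54.1% and 8.33%, next to flanking medians of 0.114%, 47.9%, 46.6% and 0.267%. Pcdh8 and Pcdh20 had at least 10 allelic counts in few libraries: Pcdh8 only in +/+ replicate 2 (0 of 14, allowing up to 21.4%), and Pcdh20 in +/+ replicate 1 (86.7% of 15, interval 62.1 to 96.3, above the flanking median of 48.9%) and +/+ replicate 2 (0 of 11, allowing up to 27.3%).

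The Cast share of Pcdh17 was above that of its flanking genes in 2 libraries. Its Cast shares were 33.7% (28.6 to 39.1, 306 allelic counts) and 57.9% (49.2 to 66.2, 126) in E147A/+ and 49.2% (40.9 to 57.7, 132) and 29.1% (25.4 to 33.1, 526) in +/+. In E147A/+ replicate 1 and +/+ replicate 2 the flanking genes had medians of 0.189% and 0.328%, with maxima of 1.44% and 0.469%, and the nearest midpoint was 2.41 Mb away. A Cast share of at least 25% beside flanks under 2% occurred in 1.71% (83 of 4842) and 2.49% (94 of 3769) of genes in those libraries, and a share of at least 5%, as in Pcdh1, in 12.2% and 13.8%. Other chromosome 14 genes outside the 6 flanks also had Cast counts in these libraries. Fndc3a, 11.82 Mb before the start of Pcdh17, had 29.9% and 37.1%, Rgcc, 5.148 Mb before it, had 59.1% and 51.1% in these libraries, and the pseudogene Gm10110, 5.454 Mb after it, had 60.5% and 54.8%. Whether reads of Pcdh17 were assigned to the right allele was not tested.

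Of the 27 pairs of a member and a female library with at least 10 allelic counts, 13 lay beside genes with a median Cast share of 35% to 65% and had shares of 40.4% to 86.7%, with a median of 51.0%. The other 14 lay beside genes under 15%, with shares of 0% to 33.7% and a median of 0.326%. For the 6 members with shares in all 4 libraries, the differences of mean Cast share, E147A/+ minus +/+, were -20.8 percentage points for Pcdh10, -23.2 for Pcdh18, -2.82 for Pcdh1, -0.583 for Pcdh9, 0.142 for Pcdh7 and 6.63 for Pcdh17. Without E147A/+ replicate 1, whose flanking medians were under 1% for all 6, they turned to 8.34, 0.73, 20.1, 19.6 and -0.096 in the first 5, and were 18.8 for Pcdh17, which turned to -5.5 without E147A/+ replicate 2 and -3.44 without +/+ replicate 2. Exact two-sided permutation tests gave p from 0.667 to 1.0, and 2 libraries against 2 cannot go below 0.333. Intervals cover counting error only.

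**Figure D4:**
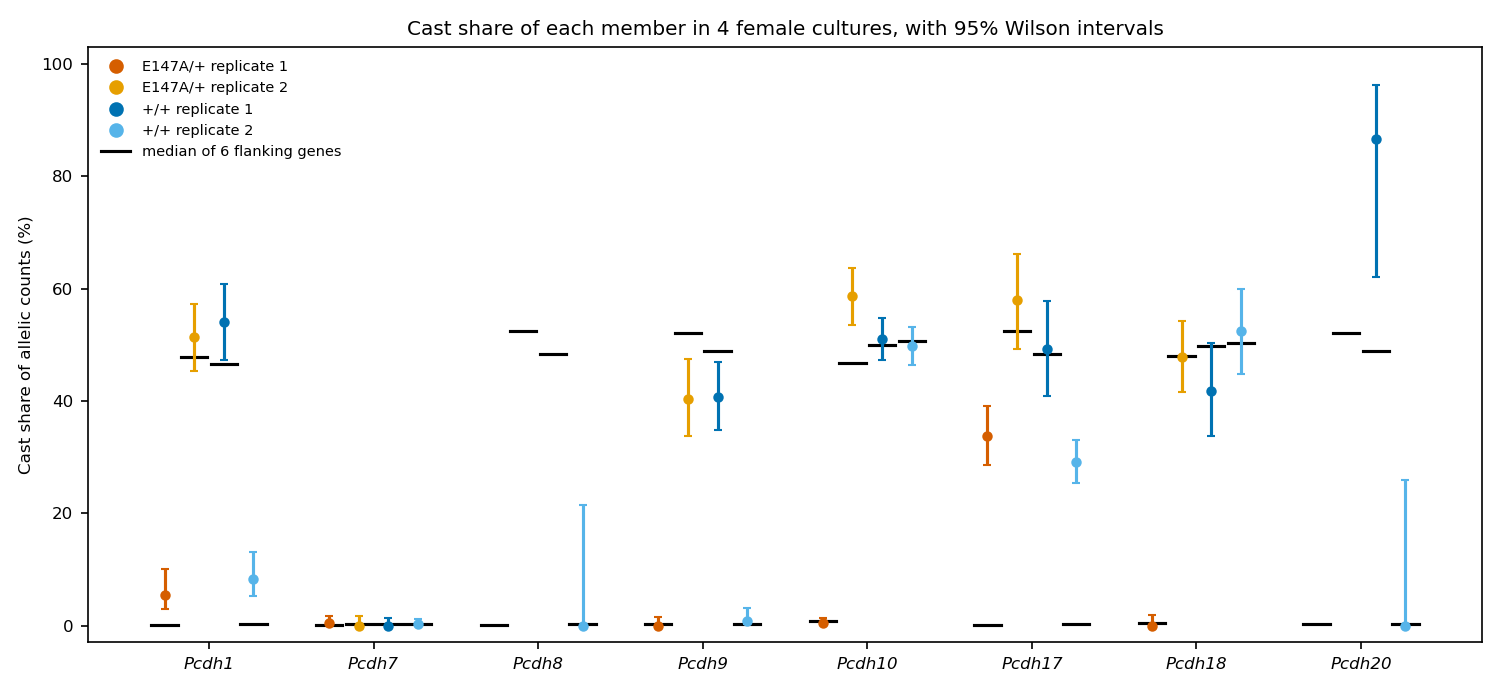
Cast share of allelic counts (percent) of each member in the 4 female cultures, as points with 95% Wilson intervals where at least 10 allelic counts were present, and black bars for the median of 6 flanking genes. Pcdh17 in E147A/+ replicate 1 and +/+ replicate 2 (33.7% and 29.1%) and Pcdh20 in +/+ replicate 1 (86.7%, with a bar at 48.9%) lie far above their bars.

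**Figure D5:**
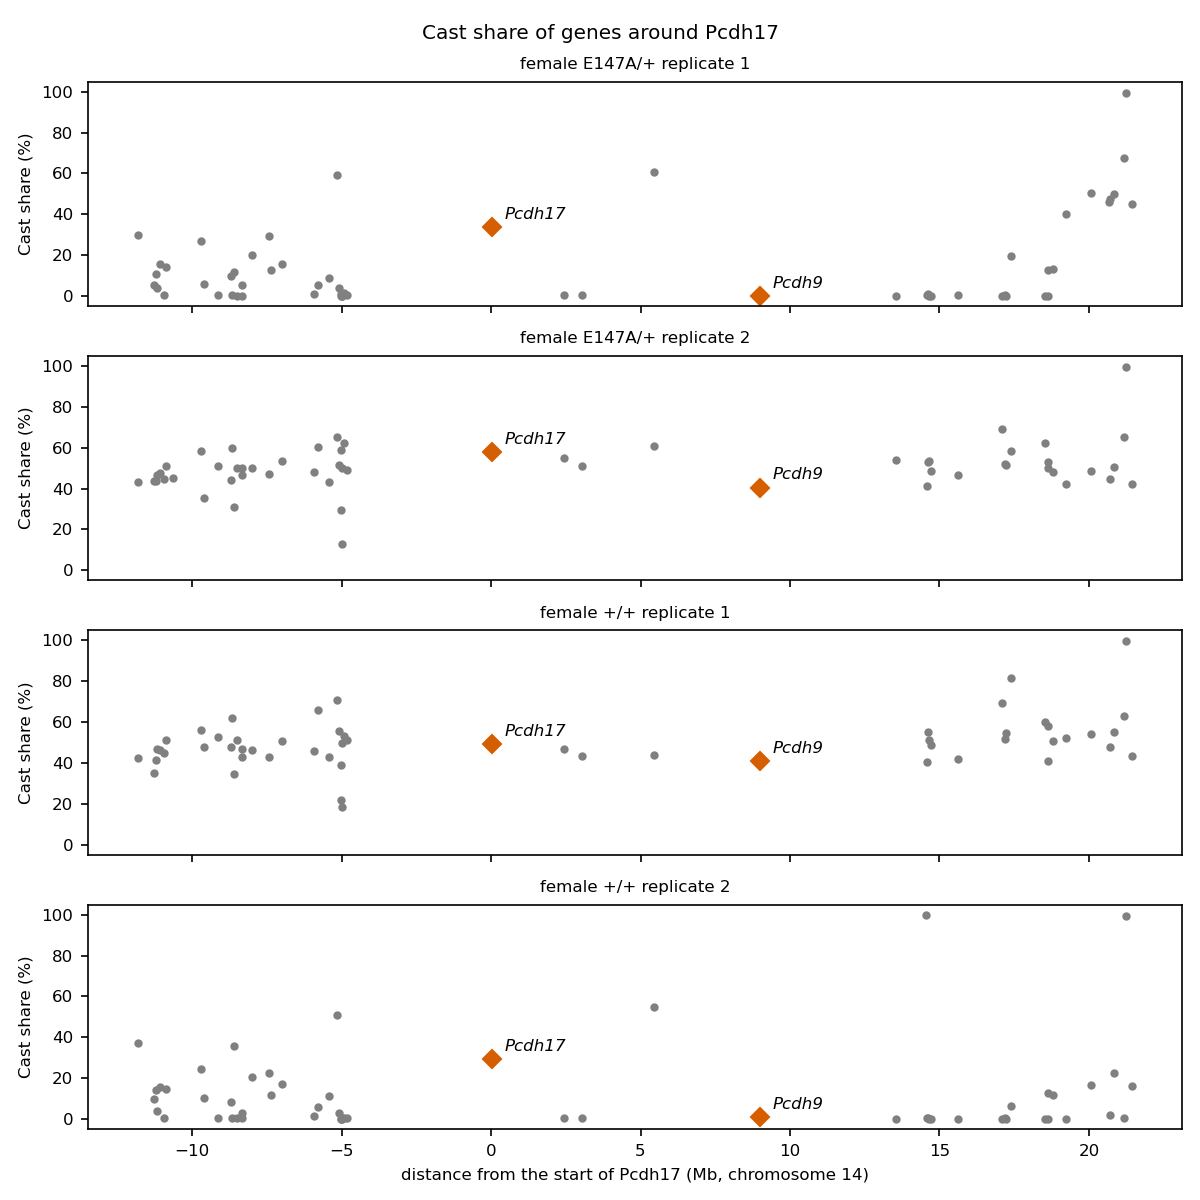
Cast share (percent) of chromosome 14 genes with at least 30 allelic counts against their distance from the start of Pcdh17 (Mb), with 1 panel for each female culture and members as diamonds. In E147A/+ replicate 1 and +/+ replicate 2 Pcdh9 and the 6 flanking protein-coding genes of Pcdh17 are under 2%. Genes farther out include some under 2% in both cultures, such as Akap11 (0.919% and 1.39%), and some far above it, such as Fndc3a (29.9% and 37.1%) and Rgcc (59.1% and 51.1%).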

How the data were processed

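Poly(A) RNA of 10 cultures was sequenced as paired-end reads from a stranded kit, per the labels. The authors deposited raw counts per gene, and further counts by allele, 129 or Cast, for the 4 female libraries. The submitters' processing notes name Trim Galore 0.4.4, HISAT2 2.0.5, featureCounts, edgeR 3.24.0 under R 3.5.1 and the build GRCm38 (mm10). How strand was used and how reads were given to alleles is not given in the sources used here. Of 52179 gene IDs with coordinates, 99.32% had the coordinates of GENCODE M21. No per-sample column was left unused.

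Members were found by symbol. Members, lists and rules were chosen with earlier results of these data known. Groups of sex and genotype came from the library titles. filterByExpr kept 17110 genes, which were normalised by TMM and tested with the quasi-likelihood F test of edgeR 4.0.16 (R 4.3.3) on 1 mean per group over all 10 libraries (6 residual degrees of freedom), or on group and litter (3). p-values were adjusted by Benjamini-Hochberg over all genes (threshold 0.05). log2 CPM used a prior count of 2. The methods were tested on simulated data. Nothing in the labels beyond separate embryos and litters describes the replicates, and p-values measure the spread between these cultures.

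Named genes were all members, called genes of the other lists or otherwise some of their 4 most abundant, called neighbours within 1 Mb and the nearest on each side of Pcdh1, and the 3 genes most like each member. Pcdh11x, Pcdh15, Pcdh19, Fat3, Akap11, Fndc3a, Rgcc, Gm10110, Gm8121 and the marker genes beside results were picked after their values were seen. Cast shares needed at least 10 allelic counts, with 95% Wilson intervals and a floor of 3 counts. Flanking genes were used because windows of 1 Mb around Pcdh9 and Pcdh17 held no tested gene, a choice made after seeing the data. Members were left out of the flanking genes. Other settings tried were DESeq2 1.42.0, limma-voom 3.58.1 with quality weights, RLE normalisation, other filters, litter as a covariate, a replicate block, only the groups compared, male libraries only for the litter contrast and leaving out each library. Protein sequences of the members and the promoter of Pcdh1 were not used here.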

Additional observations from a re-analysis of the deposited data

How the results depend on the processing

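No member was called for genotype, the interaction or sex under any alternative. For litter 3 against litter 1, DESeq2 called 2 of 8 members (Pcdh7 and Pcdh1) and 1187 of 17110 genes (6.94%), and every other alternative called 0 members. Of 621 alternative values of member fold changes, 35 turned their sign. Pcdh10 kept a negative genotype value in every alternative of all 3 contrasts. With litter as a covariate the value over both sexes was -0.05 for Pcdh18, 0.35 for Pcdh7, 0.04 for Pcdh17 and 0.30 for Pcdh1. In females it was -0.26 for Pcdh18, 0.41 for Pcdh7, 0.14 for Pcdh9 and 0.26 for Pcdh1, and in males 0.30 for Pcdh7, 0.38 for Pcdh17 and 0.33 for Pcdh1. limma-voom gave 0.04 for Pcdh7 in males, and at least 10 counts in every sample gave -0.02 for Pcdh17 and for Pcdh20 between litters. Leaving out each library moved Pcdh8 from -0.94 to 0.06, Pcdh17 from -0.90 to 0.05 and Pcdh1 from -0.36 to 0.01 over both sexes, and Pcdh8 from -1.58 to 0.40 and Pcdh17 from -1.65 to 0.26 in females. In males it moved Pcdh7 from -0.44 to 0.14, Pcdh8 from -0.56 to 0.18, Pcdh17 from -0.46 to 0.38, Pcdh20 from -0.27 to 0.06 and Pcdh1 from -0.45 to 0.28. Between litters it moved Pcdh17 from -0.58 to 0.42 and Pcdh20 from -0.15 to 0.18. The cause was not tested.

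Genes called over both sexes (14) were 113 with DESeq2, 29 with limma-voom, 33 with no filter, 9 with 10 counts in every sample, 3 with the litter covariate and 2 to 12 without 1 library. In females (2) they were 44 with DESeq2, 8 with no filter, 0 with the covariate, 1 with only the groups compared and 0 to 2 without 1 library. In males (4) they were 46, 9 with limma-voom, 14 with no filter, 2 with the covariate, 1 with only the groups compared and 1 to 4 without 1 library. For the interaction (0) they were 2 with DESeq2, 1 with the covariate and 0 to 1 without 1 library, and for sex (5) they were 10, 0 with 10 counts in every sample, 9 with the covariate and 5 to 6 without 1 library. Between litters (19) they were 1187 with DESeq2, 0 with limma-voom, 1407 with no filter, 0 in males alone and 0 to 19 without 1 library. With a replicate block, 10 genes were called over both sexes, 9 of them shared, and 0 in females. Same-numbered libraries are different embryos with a correlation of deviations of -0.304 in females and 0.071 in males, so the numbers pair nothing. With the female numbers crossed, chosen after seeing the data, 10 genes were called over both sexes and 1 in females.

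Cast share differences, without 1 female library (an alternative added after seeing the data), ran from -25.8 to 20.1 percentage points for Pcdh1, -0.096 to 0.38 for Pcdh7, -20.8 to 19.6 for Pcdh9, -49.9 to 8.34 for Pcdh10, -5.5 to 18.8 for Pcdh17 and -47.1 to 0.73 for Pcdh18. With neighbours within 1 Mb, 8 pairs of a member and a library lay in mixed regions, and 13 with flanking genes. The replicate block for the litter contrast, and that contrast without female E147A/+ replicate 1, could not be fitted. Levels per kb moved by no more than their SD over all libraries, which spans both sexes, both genotypes and all litters. Within-group SDs moved by less than 1.5 times, except Pcdh9 (0.273 without male +/+ replicate 2) and Pcdh20 (0.123 without male E147A/+ replicate 1). Low counts limit Pcdh8 and Pcdh20, and groups of 2 and 3 cultures limit every contrast.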
